A study of Mus musculus with 5 samples.

Results

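The cells described are those with at least 1 UMI of Foxp3 in the 2 libraries of mice that received diphtheria toxin. A UMI is a unique molecular identifier, the tag that marks 1 captured transcript. The library of toxin and anti-CTLA4 antibody held 1649 such cells of 4343, and the library of toxin alone held 1284 of 2186. Together these are 2933 Foxp3-positive cells of 6529 in the pair of libraries and of 20149 in the whole series. Foxp3 chose the cells, so its own level is not a result. The comparison sets the toxin and antibody library against the toxin library, gene by gene, within these cells.

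The series profiled single SMARTA cells, CD4 T cells with a transgenic T cell receptor, by droplet sequencing of transcript 3′ ends. All groups carry the genotype label C57BL/6, no age is given, and each group is 1 library, so that treatment and library cannot be told apart. Both toxin libraries carry a treatment label of Treg depletion and came from CD4+CD45.1+ cells sorted from inguinal lymph nodes on day 8 after tumor injection. The other libraries hold naive cells from spleen, cells from untreated mice and cells from mice given antibody alone. Toxin was given on days 0 and 2 and antibody on days 0, 2 and 5. The growth protocol names the tumor as MC38 and the treatment protocol as PyMG, and the labels name neither the allele that makes cells sensitive to toxin nor the number of mice pooled. The series text mentions an isotype antibody, which the labels of the toxin library do not list.

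Regulatory T cells (Tregs) are CD4 T cells that restrain immune responses, and the transcription factor Foxp3 defines their lineage. They carry much of the high-affinity IL-2 receptor chain Il2ra and of the inhibitory receptor Ctla4, which competes with the co-stimulatory receptor Cd28 for ligands on antigen-presenting cells. Antibodies against CTLA4 block this binding and, depending on the antibody, can also mark CTLA4-bearing cells for removal. Activated Tregs can take on effector features such as IL-10, granzymes and Klrg1. Diphtheria toxin kills cells that display its receptor and is used in mice to remove Tregs. Activated CD4 T cells can also express Il2ra and Ctla4.

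The label was first checked against the other Treg markers. Il2ra stood at 863 CPM, the UMIs of a gene scaled to a common total per library, in the Foxp3-positive cells of the toxin and antibody library and at 780 in those of the toxin library, against 127 and 100 in cells without a Foxp3 UMI. Ctla4 stood at 2143 and 1758 CPM in the Foxp3-positive cells and at 396 and 259 in the others. Both markers were therefore several-fold higher where Foxp3 was seen, in each library. Ikzf2, another gene of Treg identity, did not separate the cells of the toxin and antibody library. In cells without a Foxp3 UMI it stood at 1252 CPM with both treatments and 471 with toxin alone. Its levels in the Foxp3-positive cells, given below, were close to the former with both treatments and above the latter with toxin alone. Of the 6 CD4 T cell markers only Cd4 and Cd28 are listed in the tables used, and Cd4 stood at 163 and 168 CPM in the Foxp3-positive cells. UMIs of the variable genes of the SMARTA receptor, Trbv13-1 or Trav14d-3-dv8, were seen in 6.67% of the Foxp3-positive cells with both treatments and in 4.95% with toxin alone after each cell had been thinned to 1000 UMIs. The same shares in cells without Foxp3 were 30.7% and 21.4%. Before thinning they were 18.6% and 21.4% in the Foxp3-positive cells and 49.4% and 56.0% in the others. Most Foxp3-positive cells therefore showed no UMI of the transgenic receptor at this depth, and how many of them are SMARTA cells was not tested.

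The Foxp3-positive cells gave 10471815 UMIs with both treatments and 11329997 with toxin alone, with a median of 4599 and 6611.5 UMIs per cell. A single UMI was worth 0.0955 and 0.0883 CPM. The 5 mitochondrial genes that are listed made up 0.0795% and 0.0304% of UMIs. The pair of libraries shared 4 cell barcodes, of which 3 and 2 belonged to Foxp3-positive cells. Intervals given with CPM values, ratios and shares are exact 95% intervals and cover counting error only. Cells are not replicates, so no test between the treatments was made.

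Markers of other cell types were seen at low summed levels but in many Foxp3-positive cells. At least 2 such markers, over all other types, were held by 573 of 1649 cells (34.7%) with both treatments and by 661 of 1284 (51.5%) with toxin alone, where cells were also deeper. Without these cells the median log2 ratio of the G2M list was 0.29, that of co-stimulation -0.13 and that of Th1 and cytotoxic genes -0.19, against 0.13, 0.07 and -0.03 in all Foxp3-positive cells. Summed over each list, NK cell markers reached 7.45 CPM with both treatments and 6.8 with toxin alone, with Eomes the highest. Gamma delta T markers reached 22.7 and 33.2 CPM, CD8 T markers 31.1 and 32.8, B cell markers 37.6 and 57.5, dendritic markers 2.29 and 1.94, and myeloid markers 16.5 and 32.9. Plasma cell markers reached 144 and 159 CPM, of which 135 and 150 were Xbp1, a stress response factor that is not limited to plasma cells. Pecam1, the only listed marker of the stroma and endothelium list, stood at 55.2 and 46.6 CPM. The defining genes Pax5, Ncr1, Klra8, Adgre1 and Flt3 were at 0 UMIs in both libraries, and no marker of neutrophils or of erythroid cells is listed.

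Few genes differed much between the treatments within the Foxp3-positive cells. Counting the 6002 genes that averaged 25 CPM or more over the libraries and had 30 or more UMIs, 25 (0.417%) were at least 2-fold higher with both treatments and 15 (0.25%) at least 2-fold lower. At 1.5-fold the counts were 66 (1.1%) and 40 (0.666%). The median log2 ratio of all tested genes was 0.01. Lag3, an inhibitory receptor of activated T cells, the cytokine gene Il10 and the decoy receptor gene Il1r2 were among those higher with both treatments. The granzyme gene Gzma, the membrane protein genes Ifitm1, Ifitm2 and Ifitm3 and the surface protein gene Ly6c2 were among those lower. Several of the 40 genes, among them histone genes and Eno1, share 3′ sequence with other gene copies and are treated apart.

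**Figure D1:**
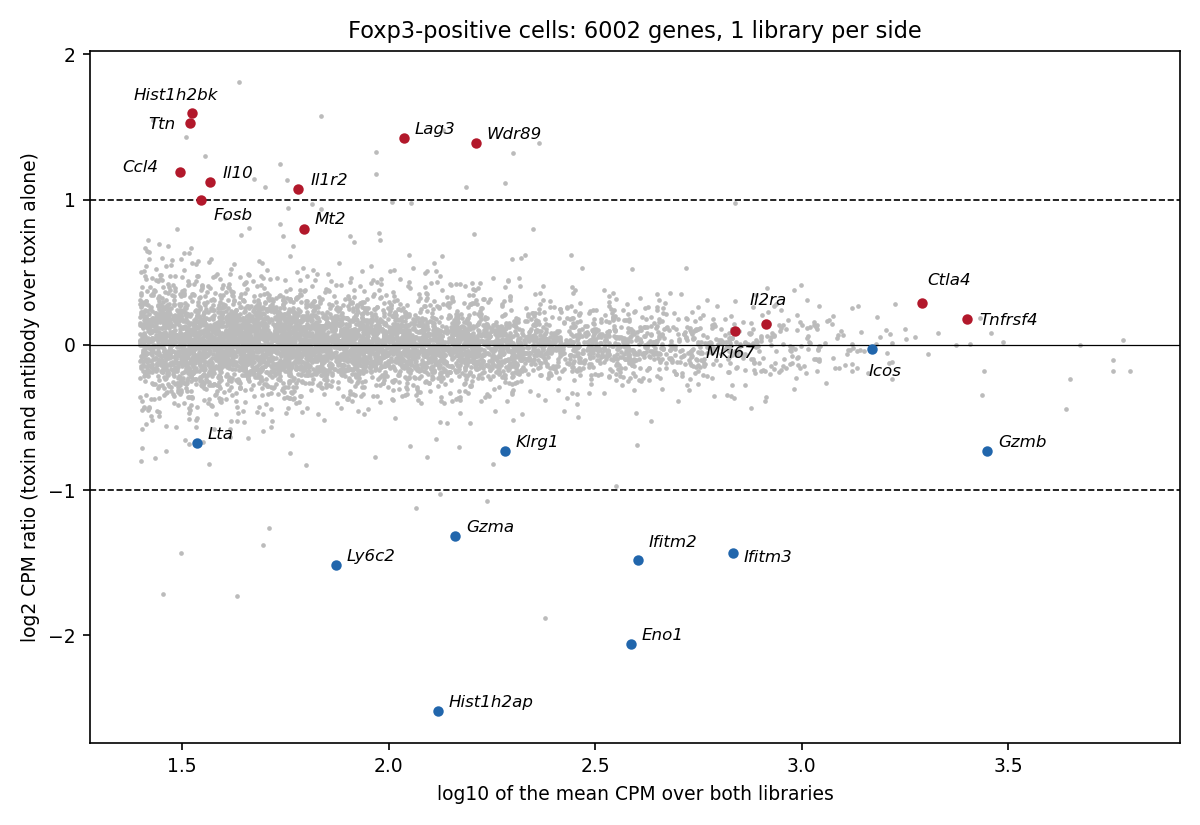
Each point is 1 of 6002 genes in the Foxp3-positive cells. The horizontal axis gives the log10 of its mean CPM over both libraries, the vertical axis the log2 ratio of toxin and antibody over toxin alone, and the dashed lines mark 2-fold. Coloured points are named genes. Most genes lie close to 0, Lag3, Ttn and Hist1h2bk lie above the upper line and Ifitm2, Ifitm3, Eno1 and Hist1h2ap below the lower one.

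In the same libraries, cells without a Foxp3 UMI differed at more genes. Their summed markers of other types also differed between the libraries, at 389 CPM with both treatments and 1124 with toxin alone for plasma cells, 245 and 98.7 for NK cells, 63.2 and 115 for B cells and 261 and 212 for myeloid cells. Of the NK cell sums, 232 and 65.3 CPM were Eomes alone, so they are not read as a number of NK cells. The part of these markers of other types in the differences of the cells without Foxp3 was not tested. There 223 of 6559 genes (3.4%) were at least 2-fold higher with both treatments and 87 (1.33%) at least 2-fold lower. At 1.5-fold the counts were 820 (12.5%) and 338 (5.15%), around a median log2 ratio of 0.06. Over the 5725 genes measured in both kinds of cell, 18 were called higher in the Foxp3-positive cells and 103 in the others. The 13 shared calls are 72.2% of the former and 12.6% of the latter. For lower genes, 15 and 65 were called, and the 12 shared ones are 80.0% and 18.5%. Both sets of cells come from the same pair of libraries, so these overlaps do not separate the treatment from the library. Of all 25 genes called higher in the Foxp3-positive cells, 18 were also at least 1.5-fold higher in the cells without Foxp3. Of the 15 called lower, 14 were at least 1.5-fold lower there, the exception being Gzma.

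**Figure D2:**
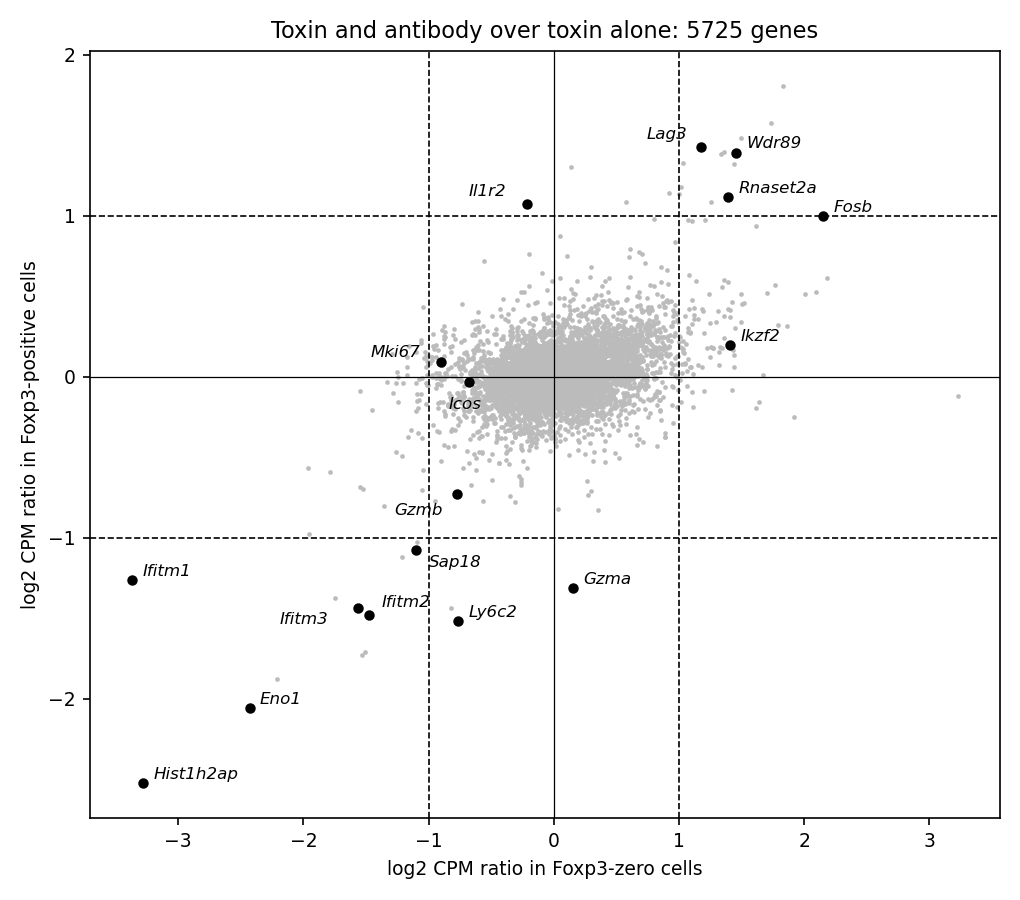
For 5725 genes measured in both kinds of cell, the horizontal axis gives the log2 ratio of toxin and antibody over toxin alone in cells without a Foxp3 UMI and the vertical axis the same ratio in Foxp3-positive cells. Dashed lines mark 2-fold. Lag3, Wdr89 and Rnaset2a lie high on both axes and Eno1, Hist1h2ap, Ifitm2 and Ifitm3 low on both, whereas Il1r2 and Gzma lie beyond 2-fold on the vertical axis alone and Ikzf2 on the horizontal axis alone.

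Genes of Treg identity differed little. Of 13 measured members, 0 reached 1.5-fold in either direction, 9 had ratios above 1 and 4 below, and the median log2 ratio was 0.13. Of all 6002 tested genes, 1.1% were at least 1.5-fold higher and 0.666% lower. A count of 0 in this list is near those shares and is not particular to Treg genes. The same holds for the other lists below with 0 members past 1.5-fold. Ctla4, the antibody's target, was at 2143 CPM (2115 to 2171) with both treatments and 1758 (1733 to 1782) with toxin alone, a ratio of 1.22 (1.20 to 1.24). Il2ra gave a ratio of 1.11 (1.08 to 1.14). Ikzf2, which encodes the transcription factor Helios of many Tregs, was at 1272 and 1110 CPM, a ratio of 1.15 (1.12 to 1.17). In the cells without Foxp3 the Ikzf2 levels were 1252 and 471 CPM, a ratio of 2.66, and whether this differs from the Foxp3-positive cells was not tested. Ikzf4, which encodes a related factor, had a ratio of 1.33, and Izumo1r, which encodes folate receptor 4, a ratio of 1.18. Itgae, the integrin chain of CD103, was the lowest of the list at 230 against 285 CPM, 1.24-fold lower. Lrrc32, which displays latent TGF-beta on Tregs, was at 63.6 and 55.1 CPM, and Nrp1, a receptor of many thymic Tregs, was under the count minimum at 15.7 and 13.3. In cells of 2000 to 6000 UMIs the list median was -0.15, with Il2ra at a ratio of 0.99 and Ikzf2 at 0.98.

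The co-stimulatory receptors were also close in level. Of 9 measured members 0 reached 1.5-fold, and the median log2 ratio was 0.07. Tnfrsf4, encoding OX40, was at 2671 and 2362 CPM, a ratio of 1.13 (1.11 to 1.15). Tnfrsf18, encoding GITR, was at 1092 and 1001 CPM. Tnfrsf9, encoding 4-1BB, was at 655 and 733 CPM, 1.12-fold lower with both treatments. Icos, an inducible co-stimulatory receptor, was at 1468 and 1499 CPM, a ratio of 0.98 (0.96 to 1.00). Cd28, which shares its ligands with CTLA4, was at 401 and 339 CPM, a ratio of 1.18. The median of this list was -0.16 in cells of 2000 to 6000 UMIs and -0.13 without cells that held markers of another type. Genes of the T cell receptor response gave a median of 0.04 over 13 members, with 0 past 1.5-fold. Among them the NF-kB subunit Rel was at 80.8 and 62.4 CPM and the early gene Egr1 at 42.0 and 32.0.

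Among 6 measured inhibitory receptors, Lag3 was the member past 1.5-fold. Lag3 (chr6:124904361-124911705, minus strand, GRCm38) binds MHC class II and dampens T cell activation. It stood at 159 CPM (151 to 167) with both treatments and 59.2 (54.8 to 63.9) with toxin alone, a ratio of 2.68 (2.45 to 2.94). It was seen in 630 of 1649 cells, 38.2%, with both treatments and in 305 of 1284, 23.8%, with toxin alone. After thinning, the shares were 15.9% (14.1 to 17.8) and 7.08% (5.73 to 8.63). Of 13 and 20 cells with markers of a lineage other than T cells, with median depths of 5762 and 11930 UMIs, 23.1% (5.04 to 53.8) and 15% (3.21 to 37.9) held a Lag3 UMI after thinning. The thinned shares of the Foxp3-positive cells thus do not stand above those of these few cells, and they are not read as a share of expressing cells. Whether the cells of other lineages express Lag3 themselves was not tested, so they are a comparison and not a measured background. Cells without Foxp3 held more Lag3 in both libraries, at 396 and 175 CPM. In Foxp3-positive cells of the other libraries Lag3 was at 62.7 CPM in 72 naive cells, 18.1 (1 UMI) in 16 untreated cells and 36.0 in 54 cells with antibody alone. The other inhibitory receptors lay within 1.5-fold, as with Cd200 at 46.8 and 37.7 CPM, Lair1 at 36.2 and 42.1 and Btla at 27.6 and 24.4. Their list median was 0.07.

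The effector Treg genes differed in both directions. Of 15 measured members 2 were at least 1.5-fold higher with both treatments, Il10 and Il1r2, and 2 at least 1.5-fold lower, Gzmb and Klrg1. The median log2 ratio was -0.03, with 7 members above a ratio of 1 and 8 below. The median was 0.046 without cells that held at least 2 genes of the G2M list after thinning, and to -0.20 at a minimum of 100 CPM.

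Il10 (chr1:131019845-131024974, plus strand) encodes the suppressive cytokine IL-10. It was at 50.5 CPM (46.3 to 55.0) with both treatments and 23.2 (20.5 to 26.2) with toxin alone, a ratio of 2.18 (1.87 to 2.53). UMIs of Il10 were found in 221 and 107 cells, 13.4% and 8.33%, and after thinning in 5.61% and 3.46%. Of the cells of other lineages 15.4% (2 of 13) and 5.00% (1 of 20) held an Il10 UMI before thinning. The unthinned share with both treatments is thus not above that of these cells. None held one after thinning, which with so few cells allows a share of up to 24.7% and 16.8%. In cells without Foxp3 the levels were 11.3 and 3.53 CPM. Il10 was thus several-fold higher in the Foxp3-positive cells than in the others in both libraries.

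Il1r2 (chr1:40074079-40125231, plus strand) encodes a decoy receptor that binds interleukin-1 without signalling. It was at 81.7 CPM (76.4 to 87.4) and 38.8 (35.3 to 42.6), a ratio of 2.10 (1.87 to 2.37). It was seen in 395 and 167 cells, 24.0% and 13%, and after thinning in 7.60% and 3.77%. Cells of other lineages held an Il1r2 UMI in 7.69% (1 of 13) and 20.0% (4 of 20) before thinning. None held one after thinning, which allows a share of up to 24.7% and 16.8%. The unthinned share of the toxin library is thus not above that of these cells and is not read as a share of expressing cells. In cells without Foxp3 Il1r2 was at 37.1 and 42.9 CPM, a ratio of 0.86 (0.71 to 1.05), so the 2-fold step was seen in the Foxp3-positive cells and the others lay near a ratio of 1. Without the cells of at least 2 G2M genes, which left 158 and 160 cells, the Il1r2 ratio was 3.49 (2.36 to 5.24), from 96 and 37 UMIs.

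Gzmb (chr14:56258838-56262260, minus strand) encodes granzyme B, a protease that cytotoxic cells release into target cells. It was among the most abundant genes of the Foxp3-positive cells, at 2121 CPM (2093 to 2149) with both treatments and 3514 (3479 to 3548) with toxin alone, 1.66-fold lower (1.63 to 1.68). Of the cells, 81.7% and 91.3% held a Gzmb UMI, and 63.2% and 75.9% after thinning. Cells of other lineages held none after thinning and 7.69% and 10.0% before it. Cells without Foxp3 had 257 and 439 CPM of Gzmb, 1.71-fold lower with both treatments. Outside the toxin libraries Gzmb was at 153 CPM in the Foxp3-positive cells of the naive library, at 0 UMIs in those of the untreated one and at 14.8 with antibody alone. These are 72, 16 and 54 cells. Among the 5 libraries, Gzmb was thus highest in the Foxp3-positive cells of the 2 toxin libraries.

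Klrg1 (chr6:122270596-122282882, minus strand) encodes an inhibitory lectin receptor of terminally differentiated T cells. It was at 144 CPM (137 to 151) and 239 (230 to 248), 1.66-fold lower (1.56 to 1.77) with both treatments. Klrg1 UMIs were seen in 29.4% and 46.3% of cells, and in 12.8% and 20.0% after thinning. None of the 13 and 20 cells of other lineages held one, which with so few cells allows a share of up to 24.7% and 16.8%. The thinned share with both treatments is not above that limit. Cells without Foxp3 carried 17.5 and 22.2 CPM. The 72 Foxp3-positive cells of the naive library had more Klrg1 than either, at 306 CPM, and those of the untreated and antibody libraries, 16 and 54 cells, were at 0 UMIs.

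Gzma (chr13:113093825-113100981, minus strand) encodes granzyme A. It was at 83.3 CPM (77.8 to 89.0) and 207 (199 to 216), 2.49-fold lower (2.30 to 2.69). The cells with a UMI were 222 and 256, and 39.0% and 48.2% of all Gzma UMIs came from the 10 highest cells of each library. A single cell of the toxin library held 258 UMIs. Cells without Foxp3 had 133 and 119 CPM, a ratio of 1.11 (1.00 to 1.24). Without cells that held a UMI of the transgenic receptor the Gzma level was 3.88-fold lower, and without cells of at least 6 G2M genes it was 1.60-fold lower.

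The 250 bases before the RefSeq start sites of both granzyme genes (GRCm38.p6) are shown because these genes gave the largest levels and one of the largest differences among effector genes. Capitals mark a match to the AP-1 motif TGANTCA in Gzmb, 58 bases before the start, and a match on the other strand to the interferon response motif (GAAA, any 2 bases, GAAA) in Gzma, 97 bases before it. The regions are chr14:56262335-56262584 and chr13:113100982-113101231, both on the minus strand.
Gzmb: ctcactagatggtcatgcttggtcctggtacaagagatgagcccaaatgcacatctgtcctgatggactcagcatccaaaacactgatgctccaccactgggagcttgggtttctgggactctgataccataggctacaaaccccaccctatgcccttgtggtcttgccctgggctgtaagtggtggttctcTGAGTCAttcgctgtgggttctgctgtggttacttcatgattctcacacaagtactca
Gzma: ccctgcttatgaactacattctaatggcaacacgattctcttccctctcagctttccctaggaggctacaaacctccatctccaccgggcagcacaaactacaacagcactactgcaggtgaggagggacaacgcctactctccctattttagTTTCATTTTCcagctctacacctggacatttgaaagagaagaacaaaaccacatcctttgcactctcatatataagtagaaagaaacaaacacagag
Among 32851 such regions, 6.75% hold the AP-1 motif and 2.98% the interferon response motif on either strand. Motifs for forkhead (TGTTTAC, 3.17% of regions), T-box (AGGTGTGA, 1.12%) and NF-kB (GGGA, any 2 bases, TTCC, 1.21%) factors were searched in the same way. These letters were not found in the 2 windows, and a match or its absence describes the sequence alone.

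The remaining genes of the Th1 and cytotoxic list were close to even. Of 12 measured members 1 was at least 1.5-fold higher, Ccl4, and 1 at least 1.5-fold lower, Gzma, with a median log2 ratio of -0.03. The median was -0.24 both in cells of 2000 to 6000 UMIs and without cells that held 2 G2M genes. Ccl4 (chr11:83662584-83664683, plus strand), a chemokine gene, was at 43.5 and 19.1 CPM, a ratio of 2.28 (1.94 to 2.70). However, UMIs of Ccl4 were found in 43 and 21 cells only, and the 10 highest cells held 86.6% and 84.3% of them. With cells chosen by Foxp3 after thinning the log2 ratio of Ccl4 was -0.22, the opposite direction. Ifng, encoding interferon gamma, was at 51.9 and 38.5 CPM, a ratio of 1.35 (1.19 to 1.53). Tbx21, the Th1 factor T-bet, was at 28.2 and 34.2 CPM, and Il12rb2, a chain of the IL-12 receptor, at 22.2 and 31.2. Of the Th2 and Th17 list 3 genes had enough counts, with a median of -0.23, among them Gata3, the Th2 factor, at 162 and 191 CPM and Il1rl1, the IL-33 receptor, at 26.5 and 33.8.

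The cytokine list held Il10 as the member at least 1.5-fold higher and Lta as the one at least 1.5-fold lower, of 7 measured, with a median of 0.04. Lta, encoding lymphotoxin alpha, was at 26.5 and 42.4 CPM, 1.60-fold lower (1.37 to 1.86), and it was also lower in cells without Foxp3, at 24.4 and 38.6. Genes of IL-2 and STAT5 signalling gave a median of -0.12 over 13 members with Lta as the single call. Socs1, a feedback inhibitor of cytokine receptors, was at 128 and 186 CPM, 1.45-fold lower (1.35 to 1.55). Stat5b, a transducer of IL-2, and the kinase gene Pim1 lay on the other side, with ratios of 1.30 and 1.20.

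**Figure D3:**
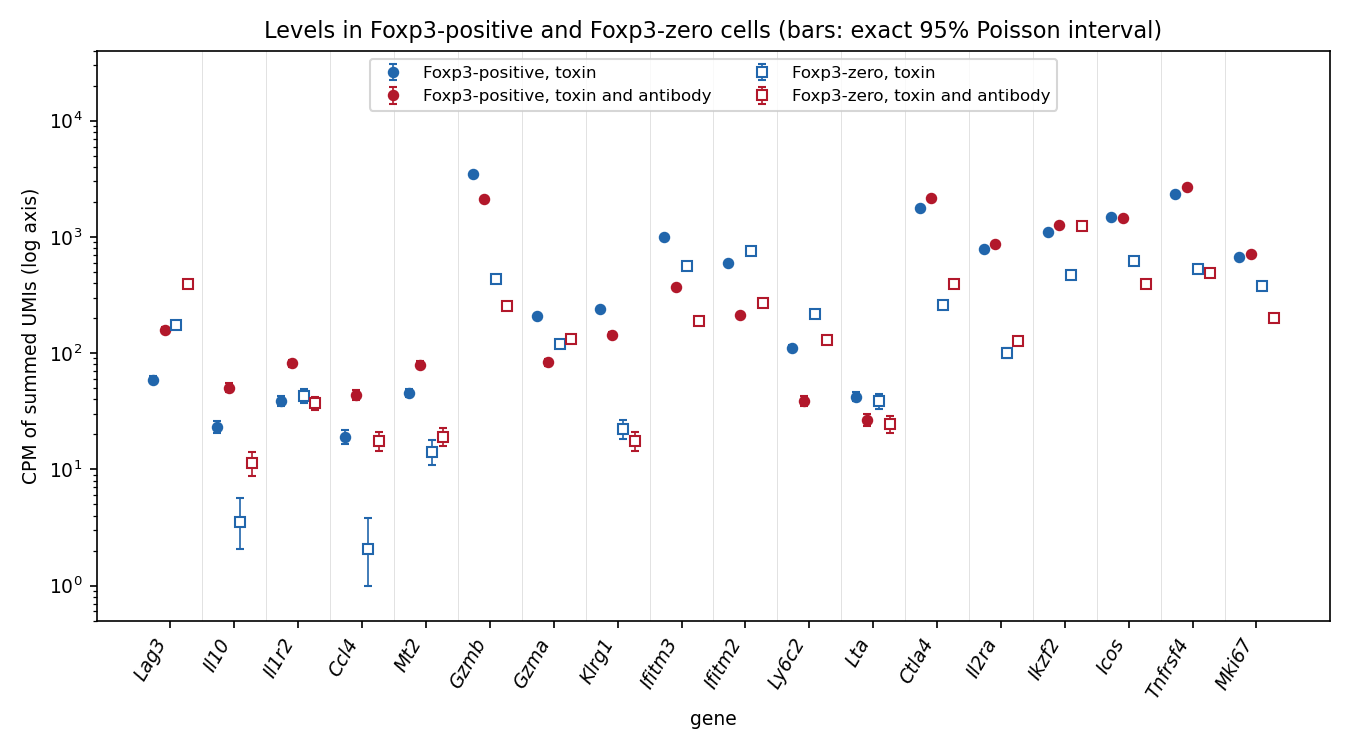
Levels of 18 genes in CPM of summed UMIs, on a log axis. Filled circles are Foxp3-positive cells, open squares cells without a Foxp3 UMI, blue is toxin alone and red toxin and antibody, and bars are exact 95% Poisson intervals. Lag3, Il10, Il1r2, Ccl4 and Mt2 are higher in red than in blue circles, Gzmb, Gzma, Klrg1, Ifitm2, Ifitm3, Ly6c2 and Lta lower, and Ctla4, Il2ra, Ikzf2, Icos, Tnfrsf4 and Mki67 within 1.5-fold.

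The Ifitm genes, which encode small membrane proteins induced by interferon and known for blocking virus entry, were lower with both treatments. Ifitm3 was at 368 CPM (356 to 379) and 994 (976 to 1013), 2.70-fold lower (2.61 to 2.81). Ifitm2 was at 212 CPM (204 to 221) and 592 (578 to 607), 2.79-fold lower (2.66 to 2.93). Ifitm1 was at 30.3 and 72.6 CPM, 2.40-fold lower, but the 10 highest cells held 89.0% and 66.3% of its UMIs. It was 15.5-fold lower without cells of 2 G2M genes, from 10 and 209 UMIs, and 1.42-fold lower without cells that held a receptor variable gene. The levels in cells without Foxp3 were also lower with both treatments, at 190 and 561 CPM for Ifitm3, 272 and 756 for Ifitm2 and 62.6 and 647 for Ifitm1. In Foxp3-positive cells of the naive, untreated and antibody libraries Ifitm2 was at 6.96, 18.1 and 38.1 CPM, all under the level of either toxin library. These are 72, 16 and 54 cells, and the naive and untreated values are 1 UMI each. Ifitm3 UMIs were seen in 36.5% and 64.6% of Foxp3-positive cells, and in 20.3% and 41.6% after thinning. The cells of other lineages gave 30.8% (9.09 to 61.4) and 35.0% (15.4 to 59.2) after thinning, intervals that include the shares of the Foxp3-positive cells. Whether these cells express Ifitm3 themselves was not tested, so they are not a measured background. The Ifitm3 shares are not read as a share of expressing cells.

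Sequences before the start of Ifitm2 (chr7:140955962-140956211, minus strand) and Ifitm3 (chr7:141010745-141010994, minus strand) are shown because these neighbouring genes lay together among the largest differences. Capitals mark the interferon response motif in Ifitm2, 46 bases before the start, and in Ifitm3 the AP-1 motif, 105 bases before it, and the NF-kB motif on the other strand, 116 bases before it.
Ifitm2: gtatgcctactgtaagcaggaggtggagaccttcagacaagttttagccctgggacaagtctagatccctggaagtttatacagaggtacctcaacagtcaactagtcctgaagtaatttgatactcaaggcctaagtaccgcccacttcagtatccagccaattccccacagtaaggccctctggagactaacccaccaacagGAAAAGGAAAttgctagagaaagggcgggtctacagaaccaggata
Ifitm3: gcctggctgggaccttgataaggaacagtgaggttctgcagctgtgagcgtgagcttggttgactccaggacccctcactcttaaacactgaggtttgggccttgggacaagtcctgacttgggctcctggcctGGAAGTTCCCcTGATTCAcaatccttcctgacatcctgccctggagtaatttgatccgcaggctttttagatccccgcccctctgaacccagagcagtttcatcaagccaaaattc
The interferon response motif as spelled was found in the Ifitm2 window and not in that of Ifitm3.

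Other interferon genes were lower by smaller steps. Of 19 measured genes of the type I interferon list, 0 reached 1.5-fold, all 19 had ratios under 1, and the median log2 ratio was -0.23. Ifi206, of the DNA sensor family, was at 56.4 and 78.4 CPM, 1.39-fold lower (1.25 to 1.54), Ifit1, which binds foreign RNA, at 23.2 and 31.8, and Rtp4 at 70.9 and 92.4. In cells without Foxp3 the median of this list was 0.12, with 3 genes at least 1.5-fold higher and 2 lower. Genes of the interferon gamma response gave a median of -0.13, with 13 of 18 under a ratio of 1 and 0 past 1.5-fold. Igtp, an immunity-related GTPase, was at 477 and 590 CPM, whereas Nlrc5, a regulator of MHC class I genes, was at 61.4 and 49.5. Ly6c2 (chr15:75108158-75111970, minus strand), a surface protein of effector and memory T cells, was at 38.7 and 111 CPM, 2.87-fold lower (2.56 to 3.21). Of the 31-base words in the last 300 bases of its transcripts, 47.2% occur in other genes such as Ly6c1, so reads could be split between them.

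Cell cycle genes were close to even, with the G2M list slightly higher and the S phase list split evenly. Of 48 measured genes of the G2M list, which mark cells before and in division, 42 had ratios above 1 and 0 reached 1.5-fold, with a median log2 ratio of 0.13. Cenpf, a kinetochore protein, was at 317 and 240 CPM, a ratio of 1.32 (1.25 to 1.39), Cdc25c, a phosphatase that starts mitosis, at 39.6 and 30.5, and Aurkb, a mitotic kinase, at 188 and 151. Mki67, encoding the proliferation marker Ki-67, was at 713 CPM (697 to 729) and 668 (653 to 683), a ratio of 1.07 (1.03 to 1.10). In cells without Foxp3 Mki67 was at 202 and 377 CPM, 1.87-fold lower, and the G2M list had a median of -0.65 over 43 genes. Genes of the S phase list gave a median of -0.00 over 43 members, 21 above a ratio of 1 and 22 below, 0 past 1.5-fold, with Rrm2, which makes deoxynucleotides, 1.28-fold lower at 592 and 755 CPM, and the polymerase gene Pola1 at a ratio of 1.28. Inhibitors of the cycle gave a median of -0.03 over 11 genes, among them Cdkn1b at 155 and 136 CPM and Cdkn2c at 106 and 119.

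Both cycle results depend on which cells are compared. In cells of 2000 to 6000 UMIs, 800 and 517 of the Foxp3-positive cells, the median log2 ratio was 0.92 for the G2M list and 1.25 for the S phase list, and Mki67 had a ratio of 1.80. The libraries differ in depth per cell, so a window of equal depth takes different portions of each. After thinning 29.8% (27.6 to 32.1) and 28.2% (25.8 to 30.8) of Foxp3-positive cells held a Mki67 UMI, against 7.35% and 11.8% of cells without Foxp3. The cells of other lineages gave 15.4% (1.92 to 45.4) and 20.0% (5.73 to 43.7). At least 2 G2M genes were seen in 90.2% and 87.4% of the Foxp3-positive cells after thinning and in 61.5% and 65.0% of the cells of other lineages, so that this count does not separate cycling cells.

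Histone genes of the Hist1 cluster on chromosome 13 went in both directions. Among the 12 genes named as highest were Hist1h2bk at 50.2 and 16.6 CPM, a ratio of 3.03 (2.56 to 3.60), Hist1h2bg at 40.1 and 13.7, Hist1h2an at 47.2 and 17.5 and Hist1h2ag at 76.6 and 32.3. Hist1h2ap was the lowest of all named genes at 39.1 and 225 CPM, 5.75-fold lower (5.18 to 6.40). Every 31-base word of its last 300 bases occurs in other histone genes, and for Hist1h2an and Hist1h2ag the shares are 85.2% and 72.2%, so counts can be split between copies and no level is assigned to one of them. Of the 31 measured genes whose names begin with Hist, a set chosen after the values were seen, 12 were at least 1.5-fold higher and 2 lower, with a median of 0.52. Without cells of 2 G2M genes too few UMIs were left to compare these genes, 3 and 2 for Hist1h2ap and 11 and 1 for Hist1h2bk.

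Genes of metabolism differed little, and the one call among them, Eno1, is of a gene with related copies. Of 16 measured genes of glycolysis, 14 had ratios under 1 and 1 was at least 1.5-fold lower, with a median log2 ratio of -0.18. Eno1 (chr4:150236721-150248879, plus strand), which encodes the enzyme enolase, was at 150 CPM (142 to 157) and 624 (609 to 639), 4.17-fold lower (3.95 to 4.41). It was also lower in cells without Foxp3, at 86.3 and 465 CPM, while the naive, untreated and antibody libraries had 411, 381 and 470 CPM in such cells. In the cells without Foxp3, the toxin and antibody library was thus the low one of the 5. Of the words in the transcript ends of Eno1, 17.3% are shared with other genes, Eno1b among them. Whether reads of such genes were counted alike in the libraries was not tested, and the value is not read as a difference in glycolysis. The next members were Pfkl, an enzyme of the pathway's commitment step, at 73.0 and 92.9 CPM, the lactate exporter gene Slc16a3 at 67.8 and 83.2 and the glucose transporter gene Slc2a1 at 42.1 and 50.0.

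Respiratory chain genes had a median of 0.02 over 26 members, with 0 past 1.5-fold and Uqcr10 the highest at a ratio of 1.15. Cholesterol synthesis had a median of -0.13 over 18 genes, with Mvd at 49.9 and 61.3 CPM and Hmgcs1 at 91.1 and 105. Amino acid transport and stress genes had a median of 0.10, with 10 of 12 above a ratio of 1. Asns, which makes asparagine, had a ratio of 1.42, and Slc38a2, a transporter of neutral amino acids, at 191 and 142. Ribosome building genes had a median of 0.19, with 16 of 17 above a ratio of 1 and 0 past 1.5-fold. Gnl3, a nucleolar GTPase gene, was at 187 and 143 CPM, a ratio of 1.31 (1.23 to 1.40), and Nop58, a core protein of small nucleolar particles, at 393 and 316. In cells without Foxp3 the median of ribosome building was -0.12.

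Early response genes that dissociation of tissue can induce were higher with both treatments. All 10 measured members had ratios above 1, 2 of them at least 1.5-fold, and the median log2 ratio was 0.36. Fosb, a subunit of the AP-1 factor, was at 46.8 and 23.4 CPM, a ratio of 2.00 (1.72 to 2.33). Jun, another subunit, was at 252 and 166 CPM, a ratio of 1.52 (1.43 to 1.61), Dusp1, a phosphatase gene, at 136 and 94.0, and the factor Klf6 at 162 and 121. In cells without Foxp3 the median was 1.22, with Fosb at 582 and 131 CPM. Share of mitochondrial UMIs and median depth differ between the libraries in the values given above, and their part in this result was not tested. NF-kB genes had a median of 0.02 over 15 members, with the inhibitor gene Tnfaip3 at 59.1 and 39.9 CPM, a ratio of 1.48, and Icam1, an adhesion ligand, at 96.6 and 123.

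**Figure D4:**
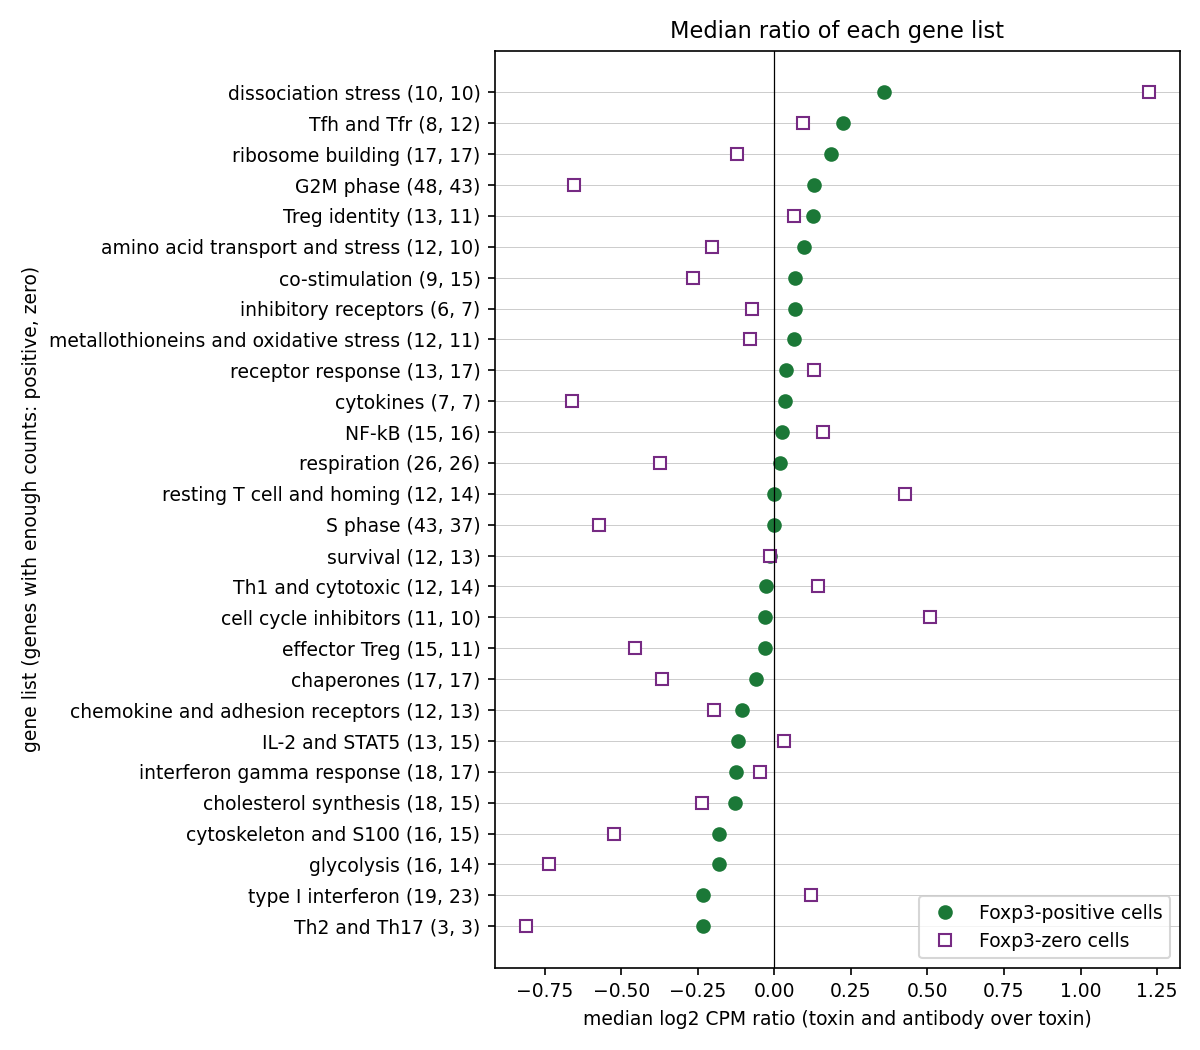
Median log2 CPM ratio of toxin and antibody over toxin alone for 28 gene lists, each followed by the number of its genes with enough counts in Foxp3-positive cells and in cells without a Foxp3 UMI. Filled circles are Foxp3-positive cells and open squares the others. The circles lie between -0.23 and 0.36, whereas the squares spread from -0.81 to 1.22.

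Among metallothioneins and genes of oxidative stress, Mt2 was the member past 1.5-fold. Mt2 (chr8:94172664-94173568, plus strand), which binds zinc and copper, was at 79.4 and 45.5 CPM, a ratio of 1.74 (1.56 to 1.95). The list has 12 measured members. Its neighbour Mt1 was at 452 and 361 CPM, a ratio of 1.25, and at a ratio of 0.90 in cells of 2000 to 6000 UMIs. The median of the list was 0.07. Without cells of 6 G2M genes the Mt2 ratio was 1.19, and without cells of 2 such genes 2.86. In the other 3 libraries Mt2 was at 6.96 (1 UMI), 0 and 0 CPM in Foxp3-positive cells, with 72, 16 and 54 cells.

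Genes of the resting state and of homing had a median of -0.00 over 12 members with 0 past 1.5-fold. Foxp1, a factor of resting T cells, was at 121 and 84.9 CPM, a ratio of 1.43 (1.31 to 1.55), Id3 at 32.3 and 24.5, and Klf2, which drives homing receptors, at 613 and 743. Ccr7, a chemokine receptor of lymph node homing, was at 158 and 135 CPM. Cd44, a marker of antigen experience, was at 45.4 and 53.6 CPM. Of 12 chemokine and adhesion receptors 0 reached 1.5-fold, with a median of -0.10. Ccr2, a receptor for inflammatory chemokines, was at 164 and 236 CPM, 1.43-fold lower (1.35 to 1.52), and 1.93-fold lower in cells of 2000 to 6000 UMIs. Itgb7, an integrin chain of gut homing, was at 706 and 924 CPM, and Ccr8, a receptor of tissue Tregs, was under the count minimum at 5.83 and 8.65. Genes of follicular T cells had a median of 0.22 over 8 members, with Il6st at 44.2 and 31.9 CPM and the factor Tox at 57.5 and 41.8.

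Cytoskeleton and S100 genes had a median of -0.18, with 13 of 16 under a ratio of 1 and 0 past 1.5-fold. S100a6, a calcium-binding protein, was at 3700 and 5015 CPM, 1.35-fold lower (1.34 to 1.37), and Anxa2, a membrane-binding protein, at 643 and 868. Chaperones had a median of -0.06 over 17 genes, with the endoplasmic reticulum gene Pdia3 at 721 and 922 CPM and the mitochondrial Hspe1 at 952 and 782. Survival genes had a median of -0.01 over 12 members, with Pmaip1 and Bak1, both of which promote cell death, at ratios of 1.28 and 0.87.

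Several of the largest differences had the same direction in cells with and without Foxp3. Whether their sizes differ between these cells was not tested. Wdr89 was at 235 and 89.6 CPM in the Foxp3-positive cells and at 327 and 119 in the others, ratios of 2.63 and 2.74. Rnaset2a, a ribonuclease gene, gave ratios of 2.17 and 2.62, and Rnaset2b 2.13 and 2.39. On the lower side Sap18, of a histone deacetylase complex, was 2.11-fold and 2.14-fold lower, Ahsa1, a cochaperone, 2.17-fold and 2.32-fold, Polr2l, a subunit of RNA polymerase, 2.59-fold and 3.36-fold, and Dynlt1f, a dynein light chain, 3.31-fold and 2.90-fold. Shared words in transcript ends made up 83.5% for Dynlt1f, 77.1% for Rnaset2a, 28.5% for Polr2l, 26.2% for Sap18, 23.5% for Ahsa1 and 20.1% for Wdr89, and how the counting treated such reads is not given in the sources used here. Whether the libraries were counted in the same way at these genes was not tested. Ttn, the gene of the muscle protein titin, was at 49.1 and 17.0 CPM in Foxp3-positive cells, a ratio of 2.88 (2.44 to 3.42), and at 13.9 and 14.9 in the others. Lgals7, a galectin gene, was 2.70-fold lower (2.28 to 3.22) in the Foxp3-positive cells, at 17.0 and 46.0 CPM. It was also lower in the others, at a ratio of 0.57. The 10 highest Foxp3-positive cells of each library held 37.1% and 29.8% of its UMIs.

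The Foxp3-positive cells were also split by their number of Foxp3 UMIs. This number chose the cells and rises with depth per cell, so its own distribution is not a result. Exactly 1 UMI was held by 417 of the 1649 cells with both treatments, 25.3%, and by 179 of 1284 with toxin alone, 13.9%, while 19.0% and 32.9% held 6 or more. Just inside the threshold, at 1 UMI, Il2ra was at 663 and 595 CPM and Ctla4 at 1917 and 1267. Just outside, at 0 UMIs, Il2ra was at 127 and 100 CPM and Ctla4 at 396 and 259. Lag3 was higher with both treatments at each step, with ratios of 3.13, 2.13, 2.97 and 2.36 at 1, 2, 3 to 5 and 6 or more UMIs. For Gzmb the ratios were 0.83, 0.58, 0.64 and 0.52, and for Klrg1 0.85, 0.60, 0.53 and 0.54, closest to 1 in the cells with a single UMI. For Il10 they were 1.46 (0.93 to 2.33), 2.67, 2.77 and 1.70. These steps also differ in depth, with medians of 2807 and 4174 UMIs at 1 Foxp3 UMI and 9222.5 and 9589 at 6 or more.

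**Figure D5:**
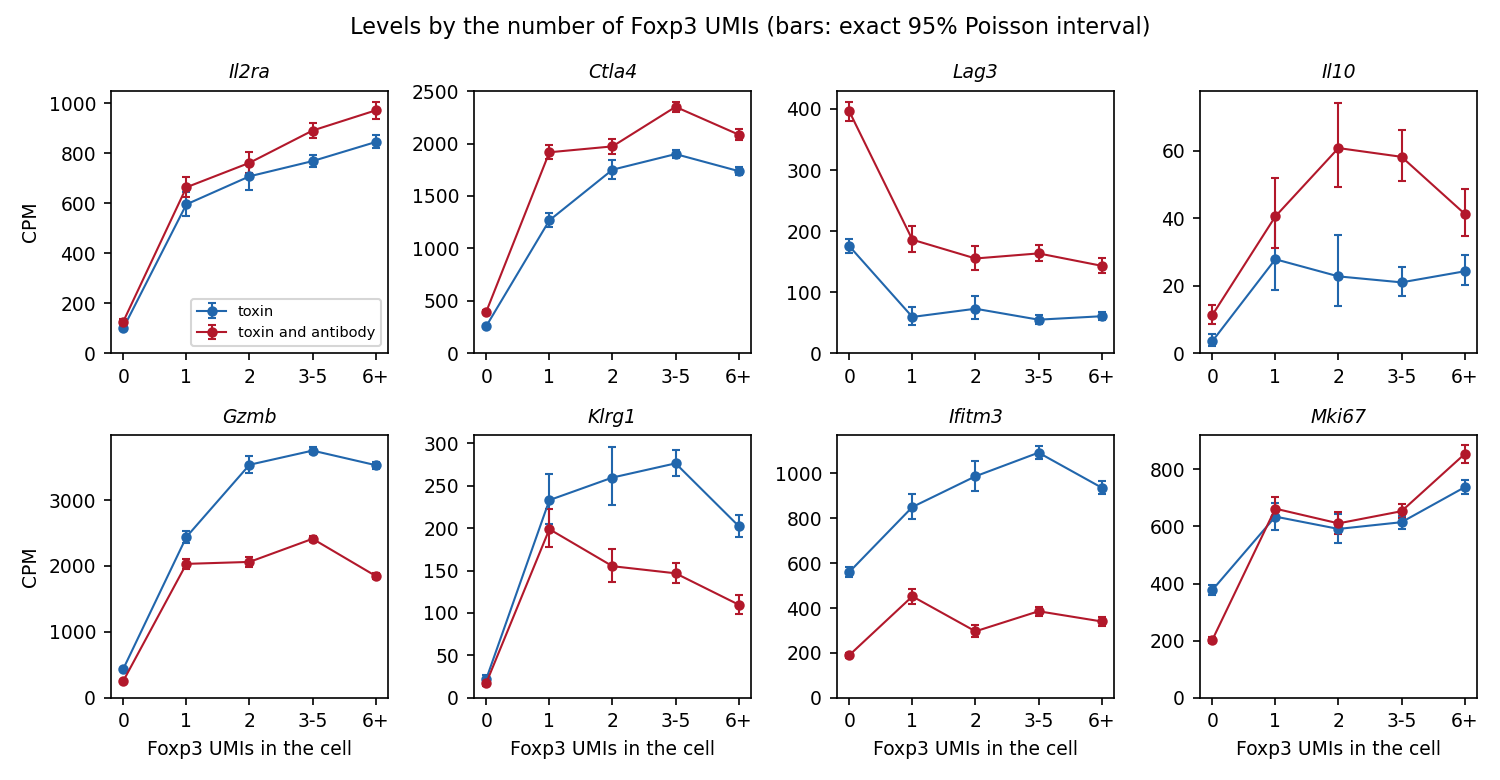
CPM of 8 genes by the number of Foxp3 UMIs in the cell, from 0 to 6 or more, with blue for toxin alone, red for toxin and antibody and bars for exact 95% Poisson intervals. Lag3 and Il10 are higher in red at each step, Gzmb, Klrg1 and Ifitm3 higher in blue, and Mki67 is higher in blue at 0 UMIs but not at the other steps.

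As a second reading, each cell was thinned at random to 1000 UMIs, which left 1605 and 1272 of the Foxp3-positive cells. Lag3 then had a ratio of 2.48, Il10 1.93, Il1r2 1.95, Gzmb 0.58, Klrg1 0.54, Gzma 0.55, Ifitm3 0.39, Ctla4 1.26, Il2ra 1.10 and Mki67 1.05. All of these kept the direction of the full counts. When cells had to hold a Foxp3 UMI after thinning, 818 and 616 cells were left, with ratios of 2.53 for Lag3, 2.40 for Il10, 1.55 for Il1r2, 0.59 for Gzmb, 0.47 for Klrg1, 0.36 for Ifitm3 and 0.99 for Mki67. Of the 25 genes called higher, 14 were called in the first thinned set and 16 in the second. Of the 15 called lower, 14 and 13 were. Among the 31 named genes past 1.5-fold, 29 had the same direction under all 17 alternatives, the exceptions being Ccl4 and Hist1h2ap, the latter in a set of cells with 3 and 2 of its UMIs. Several alternatives could not reverse such a gene. The count minimum leaves its ratio as it is, and scaling, the cell filter and 0.5 added UMIs change it very little. Of the 104 named genes within 1.5-fold, 39 crossed a ratio of 1 under at least 1 alternative, so their direction is not settled.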

How the data were processed

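Each of the 5 libraries came as a table of UMI counts per gene and cell, which the authors deposited with 11924 listed genes. Per the submitters' processing notes, the tools were bcl2fastq 2.20, Cell Ranger 6.0.0, Seurat 4.0.4 and R 4.1.1, with mm10 as the genome build. Totals and CPM refer to the listed genes, and unlisted genes were not analysed here. A filter of 200 genes and at most 10% mitochondrial UMIs removed 0 cells. Only 5 mitochondrial genes are listed, so the mitochondrial limit could hardly remove a cell and is no check of cell quality. Doublets were not called.

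UMIs were summed over the Foxp3-positive cells of each library and scaled to CPM. Ratios carry exact conditional binomial intervals (Clopper-Pearson), levels exact Poisson intervals and shares exact binomial ones. A gene at 0 was set to 3 UMIs for a ratio, and genes entered counts from a mean of 25 CPM and 30 UMIs. Genes were counted from 2-fold, and list members from 1.5-fold. For thinned values each cell was reduced to 1000 UMIs, leaving out 44 cells with both treatments and 12 with toxin alone. Cells of other lineages had at least 3 markers of 1 lineage and no Foxp3 UMI. The script was tested on simulated data.

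The members, lists and rules were chosen with earlier results of these data known. The genes named include the 12 highest and 12 lowest, ranked by whichever interval bound lies closer to 1. That ranking left out ribosomal and mitochondrial genes, antigen receptor and hemoglobin genes, Xist, Tsix, Y-linked genes and gene models with no proper name. Also named are the 2 to 4 members of each list with the largest log2 ratio, and a fixed set of Treg and T cell genes. Some genes that this rule names are not reported here. Among the 25 and 15 genes called, 11 and 2 were left unnamed by these exceptions. The higher ones include Tsix at 103 and 34.4 CPM and the mitochondrial mt-Atp8, with the largest ratio of the 25. The mt-Atp8 ratio was 3.50, and 3.56 in the cells without Foxp3. Without mitochondrial and ribosomal genes, 17 genes were called higher and 15 lower. Coordinates are from GENCODE M21 (GRCm38) and promoters from RefSeq, with an entry for 102 of 135 named genes. The transcription starts of the sources can differ, for Gzmb by more than the distance given for its motif. Distances of motifs refer to the RefSeq starts only.

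The alternatives concerned the Foxp3 threshold, thinning, depth, scaling (edgeR's TMM), the cell filter, cells left out by G2M genes, receptor variable genes or markers of another type, the count minimum and 0.5 added UMIs. Leaving out cells of at least 6 G2M genes, or the 10 highest cells of each gene, was added after seeing the data. TMM factors came from edgeR 4.0.16 under R 4.3.3. All else was computed in Python 3.11.15 with numpy 2.4.6, scipy 1.17.1 and pandas 2.3.3, and plotted with matplotlib 3.10.9.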

Additional observations from a re-analysis of the deposited data

Results flagged for a closer look

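For 3 gene lists the medians pointed in opposite directions in the Foxp3-positive cells and in the cells without a Foxp3 UMI, each at least 0.1 in size. Both kinds of cell come from the same libraries. Other lists also had opposite signs but a smaller median in either kind of cell, such as co-stimulation at 0.07 and -0.26, and are not flagged. With 1 library per group the difference was not tested. The G2M list had a median log2 ratio of 0.13 in the Foxp3-positive cells and -0.65 in the others. The type I interferon list had -0.23 and 0.12. The ribosome building list had 0.19 and -0.12.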

How the results depend on the processing

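Under 17 alternatives, 2 of the 31 named genes past 1.5-fold changed direction: the log2 ratio of Ccl4 was -0.22 with cells chosen by Foxp3 after thinning, and that of Hist1h2ap was 1.01 without cells of 2 G2M genes, from 3 and 2 UMIs. Of the 104 named genes within 1.5-fold 39 crossed a ratio of 1 under at least 1 alternative, among them Cdc6 (0.74, and 5.87 in cells of 2000 to 6000 UMIs) and Rrm2 (0.78, and 4.02 there), and so did 18 of the 28 list medians. The count of genes at least 2-fold higher, 25, became 82 with cells chosen after thinning, 135 in cells of 2000 to 6000 UMIs, 78 without cells of 2 G2M genes, 8 at a minimum of 100 CPM and 468 with no minimum. The count at least 2-fold lower, 15, became 25 and 49 with cells chosen before and after thinning, 31 in the depth window, 89 without cells of 2 G2M genes, 9 at 100 CPM and 242 with no minimum. The minimum of 100 CPM tests fewer genes and no minimum tests more. For the other changes the cause was not tested.

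List medians moved as follows. With cells chosen after thinning they were 0.21 for Treg identity, -0.22 for Th1 and cytotoxic genes and 0.15 for S phase, which was 0.11 with cells chosen before thinning. In cells of 2000 to 6000 UMIs they were -0.15 for Treg identity, -0.18 for effector Treg genes, -0.16 for co-stimulation, -0.24 for Th1 and cytotoxic genes, 0.92 for G2M and 1.25 for S phase. Without cells of 2 G2M genes they were 0.023 for Treg identity, 0.046 for effector Treg, 0.20 for receptor response, -0.24 for Th1 and cytotoxic, -0.071 for G2M and 0.30 for S phase. Without cells of 6 G2M genes they were 0.039 for effector Treg, 0.0057 for G2M and 0.18 for S phase. Both settings remove cells by the G2M genes themselves, so their G2M values are no check of that list. Without cells holding 2 markers of another type they were -0.13 for co-stimulation, -0.19 for Th1 and cytotoxic and 0.29 for G2M. At 100 CPM they were -0.20 for effector Treg and -0.15 for Th1 and cytotoxic, and with no minimum 0.056 for effector Treg and -0.10 for co-stimulation. TMM factors, the stricter cell filter and totals without mitochondrial and ribosomal genes moved none of these medians beyond the limits used. They change the data very little, so this is no check of the medians. The TMM factors were 1.01 with both treatments and 0.989 with toxin alone, and the stricter filter kept 1648 of 1649 and all 1284 cells.

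No paired analysis was possible because each group is 1 library. Depth limits the genes near 25 CPM and the cells of other lineages, of which there are 13 and 20.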
